A study of Homo sapiens with 132 samples.

Results

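The genes of the ERBB receptors, EGFR, ERBB2, ERBB3 and ERBB4, were followed in 4 gastric cancer cell lines after treatment with ERBB-directed agents. The members were the count rows whose Ensembl identifier carries one of these symbols in GENCODE release 29, which gave 4 of 65217 identifiers, each with 1 row in every library. ERBB receptors are receptor tyrosine kinases of the cell membrane that work as dimers. EGFR binds EGF, TGF alpha, amphiregulin and related ligands. ERBB2 (HER2) has no known ligand and is the preferred partner of the others. ERBB3 binds some neuregulins, has little kinase activity of its own and couples strongly to PI3 kinase. ERBB4 binds neuregulins and some EGFR ligands. In gastric carcinoma, ERBB2 amplification marks the tumours that are treated with trastuzumab.

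MKN1 and Hs746T cells were left untreated or received EGF (5 ng/ml), the EGFR antibody cetuximab (1 µg/ml), EGF + cetuximab, the ERBB2 antibody trastuzumab (5 µg/ml), the irreversible ERBB kinase inhibitor afatinib (0.5 µM) or trastuzumab + afatinib. For MKN7 and NCI-N87 cells the conditions were untreated, trastuzumab, afatinib and both agents together. RNA was taken after 4 h or 24 h, which makes 44 conditions with 3 biological replicates each. All 4 are established lines from metastatic sites. MKN1, MKN7 and NCI-N87 cells grew in RPMI and Hs746T cells in DMEM, both with fetal calf serum, which holds growth factors of its own, and afatinib was compared with untreated cells and not with its solvent.

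EGFR (ENSG00000146648) lies on the plus strand of chr7 at 55019021-55211628 of GRCh38, ERBB2 (ENSG00000141736) on the plus strand of chr17 at 39687914-39730426, ERBB3 (ENSG00000065361) on the plus strand of chr12 at 56076799-56103505 and ERBB4 (ENSG00000178568) on the minus strand of chr2 at 211375717-212538841. All 4 are protein coding, and each value below is the sum over a whole gene. ERBB2 exons overlap those of PGAP3 and MIEN1 on the opposite strand. The counts of PGAP3 equalled 4.00% of those of ERBB2 over all libraries and the counts of MIEN1 0.0865%. Reads on the overlap could not be assigned again from the deposited counts. AC034102.2, which shares exons with ERBB3 on the same strand, had 0.171% of its counts, and EGFR-AS1 was at 0 in every library.

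Sequences before RefSeq transcription starts of EGFR and ERBB2 are given here. ERBB3 is not in the set of windows used here. The sequences come from RefSeq with GRCh38.p14 coordinates and are written 5′ to 3′. The 250 bases before the main EGFR start, chr7:55018767-55019016 on the plus strand, were 73.6% G or C, and capitals mark the GC box GGGCGG, searched on both strands. For ERBB2, 27 bases of the window at chr17:39688064-39688090 on the plus strand are shown, where capitals mark the ETS motif CCGGAAGT on either strand. The full ERBB2 window of 250 bases was 65.6% G or C. The windows follow RefSeq starts, and the ERBB2 bases shown lie inside the gene span given above.
EGFR: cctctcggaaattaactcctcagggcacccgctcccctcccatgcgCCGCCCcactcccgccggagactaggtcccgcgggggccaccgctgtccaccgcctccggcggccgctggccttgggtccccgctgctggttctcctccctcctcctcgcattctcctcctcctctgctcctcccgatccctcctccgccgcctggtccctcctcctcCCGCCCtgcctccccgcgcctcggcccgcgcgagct
ERBB2: tccACTTCCGGagtaaCCGGAAGTtcc
The EGFR window held 2 GC boxes and the ERBB2 window 2 ETS motifs in opposite orientation. A GC box was found in 42.6% of 35116 RefSeq promoter windows and the ETS motif in 3.42%. The ERBB4 window held 1 GC box. The forkhead motif TGTTTAC, present in 2.98% of all windows, was in none of the windows of EGFR, ERBB2 or ERBB4, and the AP-1 motif TGACTCA, present in 4.203%, occurred 2 times before an internal EGFR start only. A match is a stretch of letters and was not tested for binding.

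Total counts per library ranged from 25832557 to 69434151 (median 50725775), so that 3 counts, taken as the detection floor, stood for 0.0432 to 0.116 CPM (counts relative to the library total). Levels are given as CPM scaled by TMM over all libraries, whereas fold changes come from a fit within each line, and the 2 can differ slightly. No library was identical to another. Of 5 epithelial markers, all had a median above 1 CPM in 3 of the lines, and 4 did in Hs746T cells, where CDH1 was at 0.82 CPM, and of 9 gastric markers 6, 5, 3 and 2 did in MKN1, MKN7, NCI-N87 and Hs746T cells. Of 4 mesenchymal markers, 3, 3, 3 and 4 did in the same order, and of 6 markers of other cells 3, 0, 1 and 1. In Hs746T cells the mesenchymal markers summed to 3077 to 5506 CPM and the epithelial ones to 438 to 738 CPM. The markers of other cells summed to 80.6 to 275 CPM there. Genes near absence in one line and high in another were also counted in the former, with medians over the libraries of 0.0899% to 0.168% of the other line's level for the pairs of lines that had such genes, and single libraries from 0 to 0.847%. In 1 further library, replicate 1 of Hs746T cells after 4 h EGF + cetuximab, MKN7 genes reached 2.29%. Because ERBB2 is so high in NCI-N87 and MKN7 cells, these amounts matter for its value elsewhere and are given with it. They rest on 4 to 31 genes per pair of lines, and in MKN1 cells on 8 genes of MKN7 and 7 of NCI-N87. The genes were chosen for low values in the former line, which by itself keeps the medians small. Low expression of the line's own was not told apart from reads of another line. In bulk RNA, fewer cells expressing a gene and less RNA per cell cannot be told apart.

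The first question was how much of each receptor gene the lines held before treatment. ERBB2 separated the lines most widely. In untreated NCI-N87 cells it was at 11958, 11325 and 11310 CPM at 4 h and 14563, 15048 and 12951 CPM at 24 h, which is 1.11% and 1.40% of all counts for 1 gene. In untreated MKN7 cells it was at 3704.5, 4041 and 3729 CPM at 4 h, in MKN1 cells at 113, 154 and 128 CPM and in Hs746T cells at 77.9, 86.9 and 86.3 CPM. No value of one line reached into the range of the next. After the amount implied by genes of the other lines, described below, was taken away, MKN1 (87.7, 67.3 and 104 CPM by library size alone) and Hs746T (56.4, 69.4 and 67.6 CPM) overlapped at 4 h, and at 24 h they stayed apart (162, 125 and 138 against 64.3, 76.1 and 76.0 CPM). NCI-N87 exceeded MKN7 by 1.59 log2 units at 4 h (SE 0.15, p.adjust 1.82e-17) and by 1.61 at 24 h, MKN7 exceeded MKN1 by 4.86 and 4.81, and MKN1 exceeded Hs746T by 0.66 and 0.94 (edgeR's quasi-likelihood test, Benjamini-Hochberg). Of 48 pairs of member and line comparison, 44 passed an adjusted p of 0.05, where most genes differ as well: 62.2% and 64.5% of all genes passed between MKN1 and MKN7 (4 h and 24 h), 67% and 68% between MKN1 and NCI-N87, 68.7% and 68.6% between MKN1 and Hs746T, 64.2% and 65.6% between MKN7 and NCI-N87, 65.8% and 66.6% between MKN7 and Hs746T and 68.3% and 68.4% between NCI-N87 and Hs746T. The pairs that did not pass were 1 of EGFR and 3 of ERBB4.

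The 9 genes around ERBB2 on chromosome 17 were read next, since an amplified segment carries its neighbours along. In NCI-N87 against Hs746T cells, all 9 were higher at both time points (median log2FC 4.12 at 4 h against 0.04 over all genes). In MKN7 against MKN1 cells 8 were higher and 1 lower. Of all genes, 68.3% and 68.4% passed in either direction in the former comparison (4 h and 24 h) and 62.2% and 64.5% in the latter. Counts for the other pairs of lines are not given. CDK12, a kinase that acts on RNA polymerase II, stood at 1818 CPM in untreated NCI-N87, 1349 in MKN7, 167 in MKN1 and 165 in Hs746T cells. GRB7, an adaptor that binds ERBB receptors, stood at 1297, 204, 8.34 and 1.62 CPM in the same order. PNMT, the enzyme that makes adrenaline, went the other way between MKN1 (14.02 CPM) and the lines MKN7 (0.42) and NCI-N87 (1.06). Copy number was not measured in these files.

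ERBB3 followed the order of ERBB2 at much lower values. It was at 72.0, 68.3 and 66.9 CPM in untreated NCI-N87 cells at 4 h, at 27.2, 29.6 and 26.7 CPM in MKN7, at 3.24, 4.63 and 4.83 CPM in MKN1 and at 0.709, 1.05 and 0.882 CPM in Hs746T cells. The 4 sets did not overlap, and all 12 line comparisons passed the test, the smallest being MKN7 below NCI-N87 by 1.09 log2 units at 24 h (SE 0.16, p.adjust 2.53e-09).

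EGFR had another order and a much narrower spread. At 4 h it was at 540, 656 and 707 CPM in untreated MKN7 cells, at 490, 399 and 433 CPM in MKN1, at 272, 282 and 259 CPM in Hs746T and at 228, 172 and 150 CPM in NCI-N87 cells. MKN7 exceeded MKN1 by 0.53 log2 units (SE 0.14, p.adjust 0.00103), which did not pass without replicate 2 (0.40, p.adjust 0.0892) or replicate 3 (0.39, p.adjust 0.0618) but reached 1.01 at 24 h (p.adjust 2.03e-09). MKN1 exceeded Hs746T at 4 h (0.70, p.adjust 1.25e-05), while at 24 h these lines did not differ beyond their spread (log2FC -0.11, 95% interval -0.40 to 0.18, p.adjust 0.497). NCI-N87 cells had the lowest level, 0.56 log2 units under Hs746T at 4 h and 0.52 at 24 h (p.adjust 0.000394 and 0.000926).

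ERBB4 was low everywhere and highest in MKN7 cells. There it was at 4.94, 6.28 and 5.36 CPM at 4 h and 8.33, 10.5 and 8.18 CPM at 24 h, above MKN1 by 2.73 and 3.23 log2 units (p.adjust 2.27e-09 and 3.33e-12). MKN1 (1.00, 0.955 and 0.502 CPM at 4 h) and Hs746T (0.989, 1.05 and 1.09 CPM) overlapped and did not pass the test (p.adjust 0.481 at 4 h and 0.655 at 24 h). In NCI-N87 cells the 4 h libraries lay at 1.01, 0.228 and 0.0417 CPM, the last below the floor, so that 1 library set the mean. The fall of NCI-N87 below Hs746T at 4 h (log2FC -1.29, p.adjust 0.00687) did not pass without replicate 2 (-1.01, p.adjust 0.101) or replicate 3 (-0.74, p.adjust 0.188). MKN1 above NCI-N87 at 24 h (1.68, p.adjust 0.00111) did not pass without replicate 2 (1.22, p.adjust 0.0919).

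**Figure D1:**
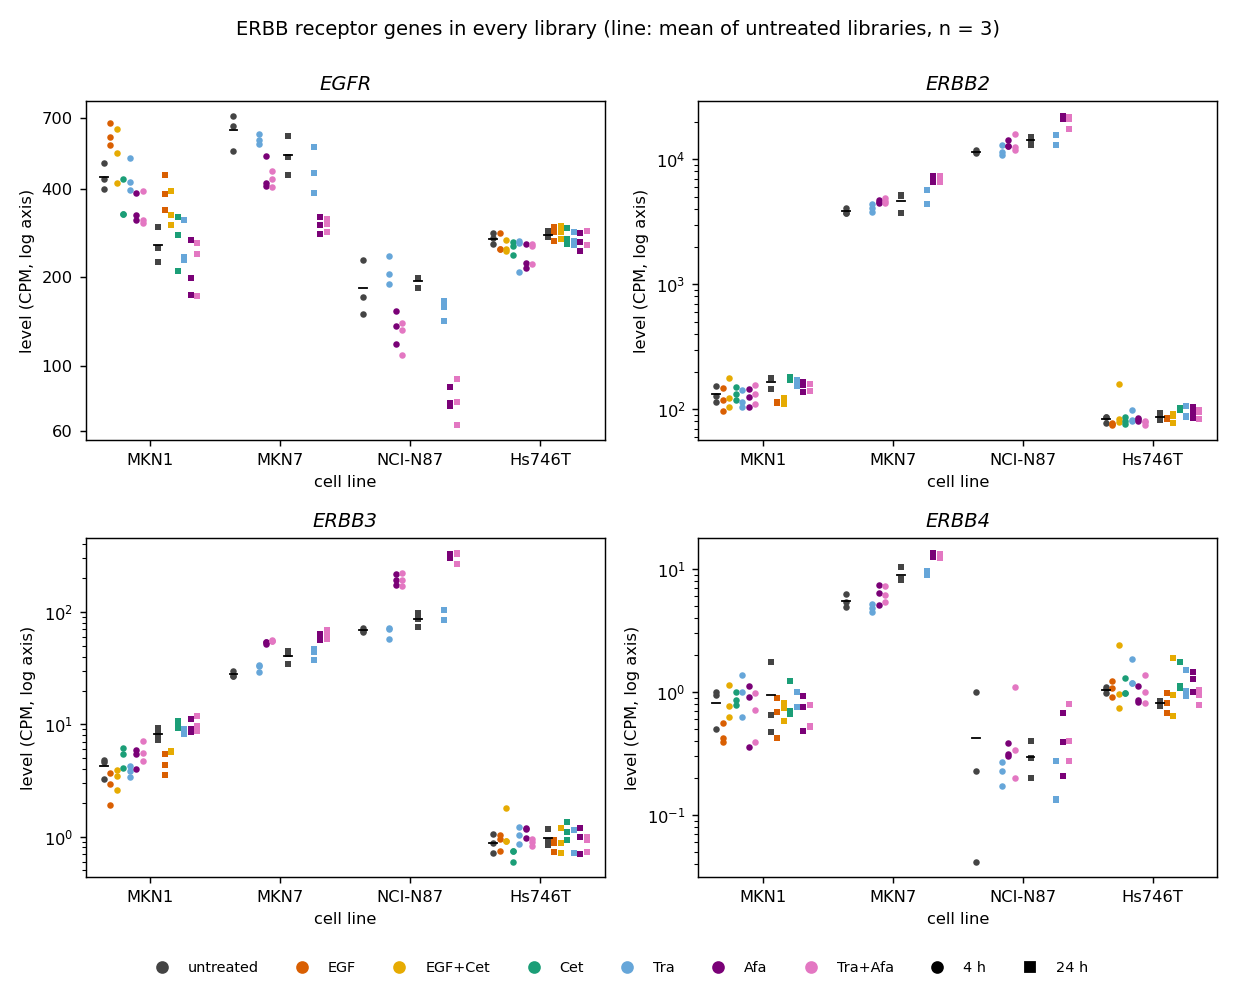
Level of each ERBB gene (CPM, log axis) in all libraries by cell line, with colours for the treatment, circles for 4 h, squares for 24 h and a short line for the mean of 3 untreated libraries. ERBB2 spans 75.1 to 22090 CPM and ERBB3 0.596 to 334 CPM over the lines, whereas EGFR stays between 63.0 and 707 CPM.

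To compare the members with each other, levels in untreated cells were divided by the length of the merged exons. On this scale, ERBB2 made up 98.1% of the sum of the 4 members in NCI-N87 and 89.1% in MKN7 cells, where EGFR made up 1.19% and 10.0%. In MKN1 cells EGFR held 64.7% and ERBB2 33.5%, and in Hs746T cells EGFR held 72.3% and ERBB2 27.1%. ERBB3 and ERBB4 stayed under 2% of the sum in each line, with ERBB3 at 1.60% in MKN1 cells as the highest of these shares. With the length of the longest transcript, EGFR made up 0.728% in NCI-N87 and 6.36% in MKN7 cells. On that scale EGFR and ERBB2 held 53.1% and 45.2% in MKN1 cells, and 61.5% and 37.95% in Hs746T cells. Lengths of coding sequence kept the order of the members in 3 lines and turned that of ERBB3 and ERBB4 in Hs746T cells (0.234% and 0.240%).

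ERBB2 and ERBB3 in MKN1 and Hs746T cells have to be read against the genes of the other lines found in these libraries. Scaled to the other lines' genes, an ERBB2 amount of 9.15 to 113 CPM was implied in the 42 MKN1 libraries (median 20.3% of the measured level) and of 10.6 to 164 CPM in the 42 Hs746T libraries (median 21.7%). In replicate 1 of Hs746T cells after 4 h EGF + cetuximab, the implied 164 CPM came close to the measured 170 CPM, both by library size alone, and the other 2 replicates were measured at 77.6 and 83.2 CPM. For ERBB3 the median implied share was 24.0% in Hs746T and 5.37% in MKN1 cells, while for EGFR it was at most 1.26% in any line. The origin of these reads was not tested.

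**Figure D2:**
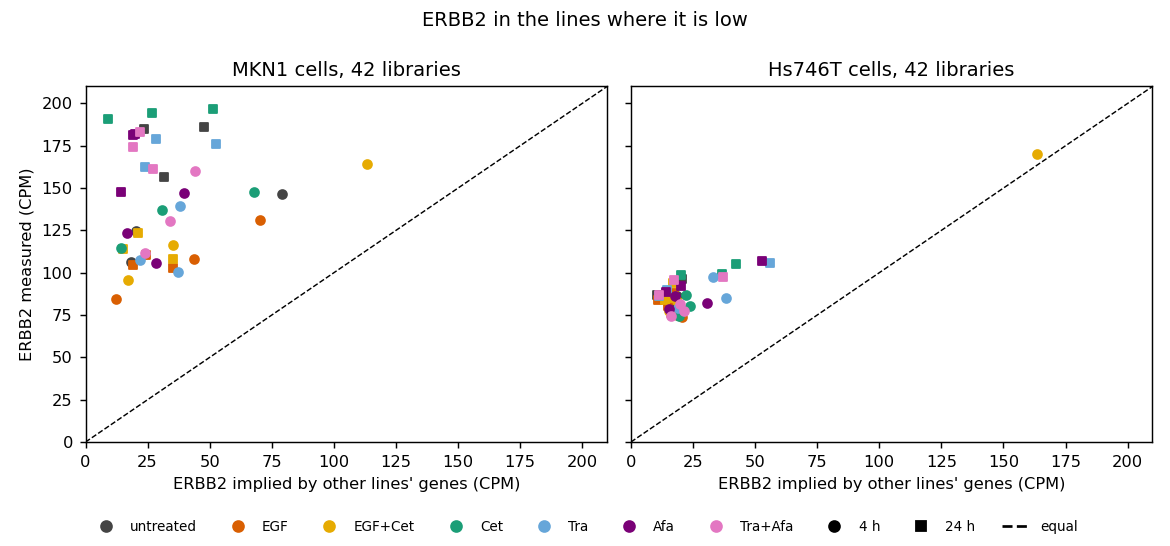
ERBB2 measured in each library (vertical axis, CPM by library size alone) against the amount implied by genes of the other cell lines (horizontal axis, CPM), for 42 libraries each of MKN1 and Hs746T cells; colours give the treatment and the dashed line marks equal values. One Hs746T library lies near that line at 164 CPM implied and 170 CPM measured, while the other Hs746T libraries lie above it.

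In NCI-N87 cells, which carry the most ERBB2, ERBB3 rose and EGFR fell after afatinib. ERBB3 rose from 72.0, 68.3 and 66.9 CPM to 220, 192 and 173 CPM after 4 h and from 97.5, 86.9 and 73.8 CPM to 332, 318 and 302 CPM after 24 h. The treated and untreated libraries were far apart at both times. The log2FC was 1.502 (SE 0.13, p.adjust 3.98e-08) at 4 h and 1.85 (SE 0.13, p.adjust 8.13e-11) at 24 h, so ERBB3 was regulated, which here needs a p.adjust under 0.05 together with a log2FC beyond 1 in either direction.

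EGFR in NCI-N87 cells went from 228, 172 and 150 CPM to 154, 137 and 118 CPM after 4 h, with 1 treated library inside the untreated range, and from 199, 199 and 184 CPM to 84.6, 74.8 and 72.8 CPM after 24 h, with no overlap. The log2FC was -0.43 (SE 0.15, p.adjust 0.0463) at 4 h and -1.36 (SE 0.15, p.adjust 6.99e-08) at 24 h. The change at 4 h did not pass without replicate 1 (-0.34, p.adjust 0.107) or replicate 2 (-0.48, p.adjust 0.241), nor with library size alone (p.adjust 0.145). The effect grew with time: the log2FC at 24 h minus that at 4 h was -0.93 (SE 0.21, p.adjust 0.00136), a test that 35.8% of all genes passed, and without replicate 2 it was -0.81 (p.adjust 0.0788). For ERBB2 and ERBB3 the same difference was 0.36 and 0.35 (p.adjust 0.135 and 0.138), and passed with the replicate block (p.adjust 0.00532 and 0.00171).

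ERBB2 itself rose less in relative terms. It was at 11958, 11325 and 11310 CPM without and 14304, 12847 and 12727 CPM with afatinib at 4 h, and at 14563, 15048 and 12951 CPM against 22090, 21661 and 20903 CPM at 24 h. The treated libraries were above the untreated ones at both times. Only the change at 24 h passed the test (log2FC 0.57, SE 0.13, p.adjust 0.000657), when ERBB2 took up 2.49% of all counts. At 4 h it was 0.21 (p.adjust 0.317), and 0.034 with the replicate number as a block. ERBB4 did not pass at either time (p.adjust 0.815 and 0.564) and lay between 0.0417 and 1.01 CPM in these libraries.

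In all, 2 of 4 members changed in NCI-N87 cells at 4 h and 3 of 4 at 24 h, where 18.2% and 62.5% of all genes did, and 1 and 2 were regulated, where 3.24% and 29.6% of all genes were. The count of changed members at 24 h is near the share among all genes. With library size alone as the scale, the median of all genes at 24 h moved from 0.03 to 0.29, and EGFR, ERBB2 and ERBB3 were at -1.10, 0.83 and 2.11.

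In MKN7 cells, where ERBB2 is also high, the same 2 receptors moved in these directions. ERBB3 went from 27.2, 29.6 and 26.7 CPM to 54.5, 51.6 and 53.8 CPM after 4 h (log2FC 0.90, SE 0.09, p.adjust 4.74e-07) and from 44.6, 42.2 and 34.6 CPM to 64.2, 62.2 and 56.4 CPM after 24 h (0.58, SE 0.09, p.adjust 2.07e-05). EGFR went from 540, 656 and 707 CPM to 410, 519 and 419 CPM after 4 h (-0.54, SE 0.12, p.adjust 0.00315) and from 448, 513 and 603 CPM to 282, 320 and 300 CPM after 24 h (-0.80, SE 0.13, p.adjust 1.83e-05). For both genes the groups did not overlap at either time. Without replicate 3 the fall of EGFR at 4 h did not pass (-0.39, p.adjust 0.0626).

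ERBB2 in MKN7 cells rose from 5209, 5059 and 3681.5 CPM to 7186, 7294 and 6572 CPM after 24 h (log2FC 0.59, SE 0.11, p.adjust 0.00012), and ERBB4 from 8.33, 10.5 and 8.18 CPM to 13.3, 12.6 and 13.4 CPM (0.53, SE 0.13, p.adjust 0.00166). Neither pair of groups overlapped, but without replicate 3 ERBB4 did not pass (0.43, p.adjust 0.0774). At 4 h, ERBB2 was at 3704.5, 4041 and 3729 CPM against 4510, 4755 and 4482 CPM (0.22, p.adjust 0.156, and 0.00562 with the replicate block), and ERBB4 did not pass (0.15, p.adjust 0.495). MKN7 was thus the line in which all 4 members changed after 24 h, against 51.6% of all genes, and in which 2 of 4 did at 4 h, against 22.2%. None of them was regulated, where 3.4% and 13.5% of all genes were at 4 h and 24 h. The effect at 24 h minus that at 4 h passed for no member (18% of all genes), but with the replicate block ERBB2 (0.37, p.adjust 0.00137) and ERBB3 (-0.32, p.adjust 0.00229) passed.

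In MKN1 cells no member passed the test after afatinib, where 3.68% of all genes did at 4 h and 25.6% at 24 h. EGFR was at 490, 399 and 433 CPM without and 389, 315 and 326 CPM with afatinib at 4 h, which do not overlap, and at 296, 226.5 and 251 against 268, 199 and 175 CPM at 24 h, which do. The log2FC was -0.38 (SE 0.17, p.adjust 0.28) and -0.29 (SE 0.17, p.adjust 0.235), and p.adjust was 0.00191 and 0.00385 with the replicate block. Replicate 1 had the highest EGFR level in all 14 MKN1 conditions. ERBB3 was at 4.04, 5.43 and 5.89 CPM at 4 h and 8.57, 9.11 and 11.1 CPM at 24 h, and overlapped with the untreated libraries (log2FC 0.27 and 0.20, p.adjust 0.631 and 0.498). ERBB2 at 24 h was at 166, 138 and 157 CPM against 176, 144 and 179 CPM untreated, which overlap (log2FC -0.13, SE 0.16, p.adjust 0.602). Of 8 pairs of member and time, 1 had an unadjusted p below 0.05, and DESeq2 called 0. The effect at 24 h minus that at 4 h passed for no member (2.77% of all genes).

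**Figure D3:**
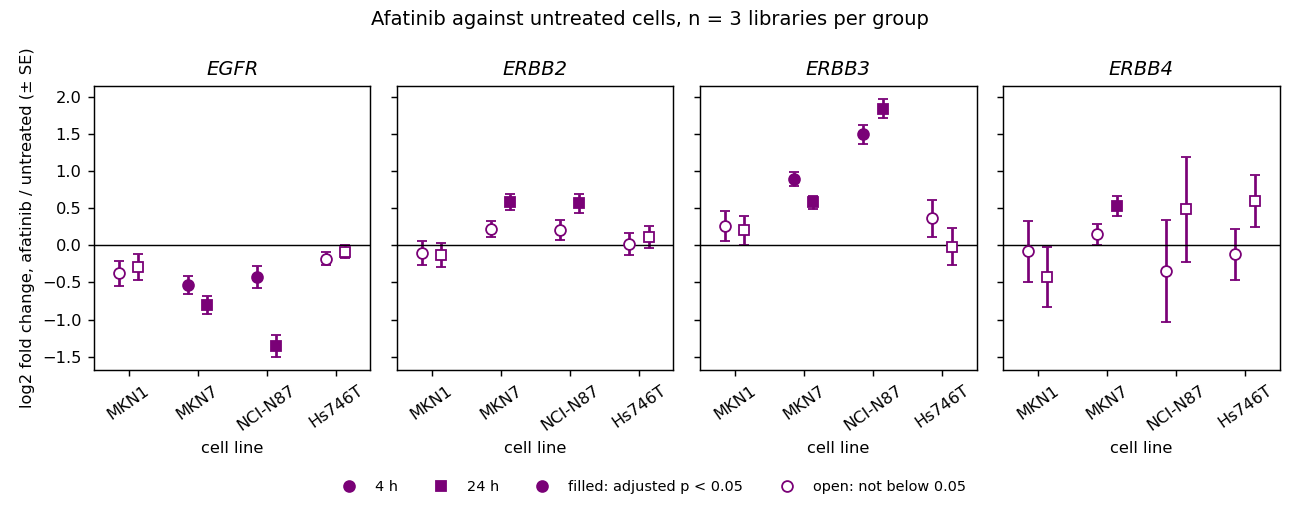
Log2 fold change of each ERBB gene after afatinib against untreated cells (points, with SE as bars) in 4 cell lines at 4 h (circles) and 24 h (squares), with filled symbols for an adjusted p below 0.05. EGFR reaches -1.36 and ERBB3 1.85 in NCI-N87 cells after 24 h, and all Hs746T and MKN1 symbols are open.

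In Hs746T cells, 0 of 76 pairs of member and comparison passed the test, where 2 had an unadjusted p below 0.05 and DESeq2 called 0. For the treatments against untreated cells, edgeR likewise called 0.00% of all genes, with 125 to 1371 genes at an unadjusted p below 0.05. With the replicate block, 1924 genes were higher and 1547 lower after 4 h afatinib, and 32 and 101 after 24 h. After afatinib EGFR was at 216, 224 and 260 CPM at 4 h against 272, 282 and 259 CPM untreated (log2FC -0.18, SE 0.09, p.adjust 0.681, and 0.0323 with the replicate block), and at 264, 284 and 246 CPM at 24 h against 275.5, 288 and 274 CPM (-0.08, 95% interval -0.26 to 0.09). Both pairs of groups overlapped. Both pairs with an unadjusted p below 0.05 were of ERBB2 after EGF + cetuximab for 4 h, against untreated cells and against EGF. It was at 160, 79.5 and 83.2 CPM against 77.9, 86.9 and 86.3 CPM untreated (log2FC 0.40, p.adjust 1), where the high value is the library with MKN7 genes at 2.29%, and without replicate 1 it was at -0.06.

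The differences between lines in the afatinib effect were tested on their own. After 24 h, ERBB3 rose more in NCI-N87 than in MKN7 cells by 1.29 log2 units (SE 0.22, p.adjust 2.2e-06), in a test that 21.4% of all genes passed, and the difference passed without each replicate in turn. The corresponding difference for EGFR was -0.53 (SE 0.20, p.adjust 0.051, and 8.1e-05 with the replicate block). The log2FC of ERBB2 was 0.59 in MKN7 and -0.13 in MKN1 cells, a difference of 0.71 (SE 0.20, p.adjust 0.0152, against 7.61% of all genes), which did not pass without replicate 2 (0.76, p.adjust 0.0599) or replicate 3 (0.60, p.adjust 0.282). By library size alone, the log2 ratio of ERBB2 to untreated MKN1 cells was -0.044. It was 0.111 after the amount implied by the other lines' genes was taken away. The difference between the lines was not tested on such values. At 4 h no member differed between NCI-N87 and MKN7 (0.56 for ERBB3, p.adjust 0.368, and 0.000254 with a replicate block in a fit of these lines alone) or between MKN7 and MKN1 cells (0.65 for ERBB3, p.adjust 0.204, and 8.98e-05 with the block), where 1.01% and 1.38% of all genes did. Between MKN1 and Hs746T cells no member differed at either time (0.372% and 4.41% of all genes).

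After trastuzumab alone, no receptor gene passed the test. Of 32 pairs of member, line and time, 1 had an unadjusted p below 0.05 and DESeq2 called 0, and over all genes edgeR called 0.00% in each line and time point, with 125 to 786 genes at an unadjusted p below 0.05. With the replicate block, 41 genes were higher and 21 lower in MKN7 cells at 24 h, 4 and 4 in NCI-N87 cells at 24 h, and 1 and 0 in NCI-N87 cells at 4 h. In NCI-N87 cells ERBB2 was at 13072, 11348 and 10827 CPM at 4 h and 15639, 15597 and 12915 CPM at 24 h, which spans the untreated values (log2FC 0.03, 95% interval -0.24 to 0.30, and 0.04, -0.23 to 0.31). EGFR in these cells was at 159, 166 and 142 CPM after 24 h, all below the untreated 199, 199 and 184 CPM (log2FC -0.33, SE 0.15, p.adjust 1), and it was the 1 pair with an unadjusted p below 0.05. Leaving out ERBB4, the log2FC of trastuzumab lay between -0.33 and 0.25 in all lines.

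Trastuzumab + afatinib was not told apart from afatinib alone. Against afatinib, 0 of 32 pairs passed, 0 had an unadjusted p below 0.05 and DESeq2 called 0. ERBB3 in NCI-N87 cells was at 222, 192 and 169 CPM at 4 h and 333.5, 331 and 269 CPM at 24 h, with a log2FC against afatinib of -0.01 (95% interval -0.27 to 0.25) and -0.03 (-0.29 to 0.23). Against untreated cells, the combination changed 2 of 4 members in NCI-N87 cells at 4 h (17.3% of all genes) and 3 of 4 at 24 h (64.7%), with ERBB3 at 1.49 and 1.82, and EGFR at -0.53 and -1.38. EGFR at 4 h did not pass without replicate 1 (-0.41, p.adjust 0.0536) or replicate 2 (-0.61, p.adjust 0.115). ERBB2 at 4 h was at 0.22 (p.adjust 0.283, and 0.0315 with the replicate block). These comparisons share their control libraries with the afatinib comparisons. Against trastuzumab alone, ERBB3 rose by 1.55 at 4 h and 1.64 at 24 h (p.adjust 1.81e-08 and 5.8e-10), and EGFR fell by 0.73 and 1.05 on the log2 scale (p.adjust 0.000915 and 2.63e-06). In that comparison 2 of 4 members changed at 4 h, against 19.7% of all genes, and 3 of 4 at 24 h, against 61.8%. The third was ERBB2 (0.43, p.adjust 0.00673), which did not pass without replicate 2 (0.42, p.adjust 0.0827).

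Against untreated MKN7 cells, the combination changed 2 of 4 members at 4 h (23.4% of all genes) and all 4 at 24 h (51.9%), of which ERBB4 at 24 h did not pass without replicate 3 (0.45, p.adjust 0.0689), and ERBB2 at 4 h was at 0.26 (p.adjust 0.0921, and 0.00169 with the replicate block). In MKN7 cells trastuzumab + afatinib against trastuzumab changed 2 of 4 members at 4 h (20.5% of all genes) and all 4 at 24 h (44.4%). ERBB3 was at 55.2, 56.4 and 54.7 CPM against 29.02, 33.5 and 33.3 CPM at 4 h (log2FC 0.80, p.adjust 2.99e-06) and at 68.5, 64.2 and 57.5 CPM against 46.9, 44.1 and 37.1 CPM at 24 h (0.55, p.adjust 5.64e-05). EGFR fell by 0.64 on the log2 scale at 24 h (p.adjust 0.000291). At 4 h it fell by 0.45 (p.adjust 0.0126), which did not pass when any 1 replicate was left out (p.adjust 0.0503 to 0.0743). ERBB2 and ERBB4 rose by 0.41 and 0.45 at 24 h (p.adjust 0.00438 and 0.00755), and ERBB4 did not pass without replicate 3 (0.42, p.adjust 0.0928). With the replicate block, ERBB2 (0.19, p.adjust 0.0164) and ERBB4 (0.38, p.adjust 0.0283) also passed at 4 h.

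In MKN1 cells, trastuzumab + afatinib changed no member against untreated cells (3.95% of all genes at 4 h, 26.8% at 24 h). EGFR (-0.39, p.adjust 0.235) and ERBB3 (0.44, p.adjust 0.279) passed at 4 h with the replicate block (p.adjust 0.00102 and 0.00546). The combination also changed no member against trastuzumab (3.08% of all genes at 4 h, 27.9% at 24 h). With the replicate block, EGFR passed there at 4 h (-0.40, p.adjust 0.00104) and ERBB3 as well (0.57, p.adjust 0.00052). Against afatinib, the log2FC of EGFR, ERBB2 and ERBB3 after the combination lay between -0.33 and 0.18 over all lines.

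EGF and cetuximab were given to MKN1 and Hs746T cells. In MKN1 cells EGF raised the gene of its own receptor and lowered those of ERBB2 and ERBB3. EGFR was at 490, 399 and 433 CPM without and 672, 564 and 601 CPM with EGF at 4 h, and at 296, 226.5 and 251 against 447, 340 and 385 CPM at 24 h. The treated and untreated libraries did not overlap at either time. The rise passed at 24 h (log2FC 0.62, SE 0.17, p.adjust 0.00524) but not without replicate 3 (0.61, p.adjust 0.0519), and at 4 h it was 0.48 (SE 0.17, p.adjust 0.0929, and 5.04e-05 with the replicate block).

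ERBB3 in MKN1 cells fell after EGF from 8.13, 7.24 and 9.32 CPM to 3.53, 4.35 and 5.46 CPM at 24 h (log2FC -0.87, SE 0.20, p.adjust 0.00107), and every treated library was below every untreated one. At 4 h it was at 1.92, 3.71 and 2.92 CPM against 3.24, 4.63 and 4.83 CPM, which overlap (-0.56, SE 0.21, p.adjust 0.125, and 0.000695 with the block). ERBB2 went from 176, 144 and 179 CPM to 111, 115 and 114 CPM at 24 h, again with no overlap (-0.53, SE 0.16, p.adjust 0.00901), and did not pass without replicate 1 (-0.48, p.adjust 0.114) or replicate 3 (-0.48, p.adjust 0.101). After the amount implied by the other lines' genes was taken away, ERBB2 at 24 h stood at 162, 125 and 138 CPM without and 85.2, 67.8 and 85.8 CPM with EGF by library size alone, and ERBB3 at 8.28, 7.504 and 9.16 against 3.12, 3.502 and 5.03 CPM, so that the groups stayed apart.

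At 24 h of EGF, 3 of 4 members changed in MKN1 cells, where 35.8% of all genes did, and none was regulated, where 8.36% were. No member differed in the EGF effect between 24 h and 4 h (9.46% of all genes). At 4 h of EGF none changed, where 6.82% of all genes did. With library size alone, the median of all genes at 24 h moved from -0.04 to -0.24, and EGFR, ERBB2 and ERBB3 were at 0.42, -0.73 and -1.06. ERBB4 stayed between 0.394 and 1.75 CPM in these libraries and did not pass (p.adjust 0.357 and 0.358).

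With cetuximab added to EGF, the means in MKN1 cells lay between those of EGF and of untreated cells for EGFR and ERBB3 at both times. For ERBB2 this held at 24 h only, at 118 CPM against 113 CPM with EGF and 166 CPM untreated. Single EGFR libraries overlapped with those of EGF alone at 24 h. At 24 h EGFR was at 394, 301 and 326 CPM, ERBB3 at 5.66, 5.82 and 5.82 CPM and ERBB2 at 120, 110 and 123 CPM. Against untreated cells 1 of 4 members changed, where 18.6% of all genes did: ERBB2 by -0.49 (SE 0.16, p.adjust 0.0281), which did not pass without replicate 1 (-0.46, p.adjust 0.266) or replicate 3 (-0.48, p.adjust 0.152). EGFR (0.40, p.adjust 0.101) and ERBB3 (-0.51, p.adjust 0.0736) passed only with the block (p.adjust 0.000295 and 0.000221). At 4 h none changed (0.717% of all genes). Against EGF alone none passed (0.701% of all genes at 4 h and 0.646% at 24 h), and at 24 h the values were -0.21 for EGFR (95% interval -0.56 to 0.14) and 0.36 for ERBB3 (-0.06 to 0.77, p.adjust 0.581, and 0.0293 with the block).

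Cetuximab alone changed no member in MKN1 cells, where it changed 1.43% of all genes at 4 h and 10.8% at 24 h. EGFR was at 434, 329 and 328 CPM at 4 h (log2FC -0.28, p.adjust 0.622, and 0.0275 with the block) and at 320, 278.5 and 211 CPM at 24 h (0.05, p.adjust 0.904). ERBB3 was at 9.99, 9.26 and 10.8 CPM at 24 h, with 1 untreated library inside this range (0.26, 95% interval -0.14 to 0.66, p.adjust 0.431). The difference in cetuximab effect between MKN1 and Hs746T cells passed for no member (0.127% of all genes at 4 h and 0.267% at 24 h). In Hs746T cells the log2FC of EGFR after EGF was -0.03 at 4 h and -0.00 at 24 h, with intervals of -0.21 to 0.15 and -0.18 to 0.18. The difference between the lines in the EGF effect on the members passed for none of them (0.92% of all genes at 4 h and 7.93% at 24 h). At 24 h it was 0.58 for EGFR (p.adjust 0.0642), -0.51 for ERBB2 (p.adjust 0.115) and -0.70 for ERBB3 (p.adjust 0.141). With a replicate block in a fit of these lines alone, EGFR passed at 4 h (p.adjust 8.8e-05) and EGFR, ERBB2 and ERBB3 at 24 h (p.adjust 6.58e-05, 0.000602 and 0.0297). EGFR also passed with DESeq2 (p.adjust 0.0332) and ERBB2 with library size alone (p.adjust 0.0331).

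**Figure D4:**
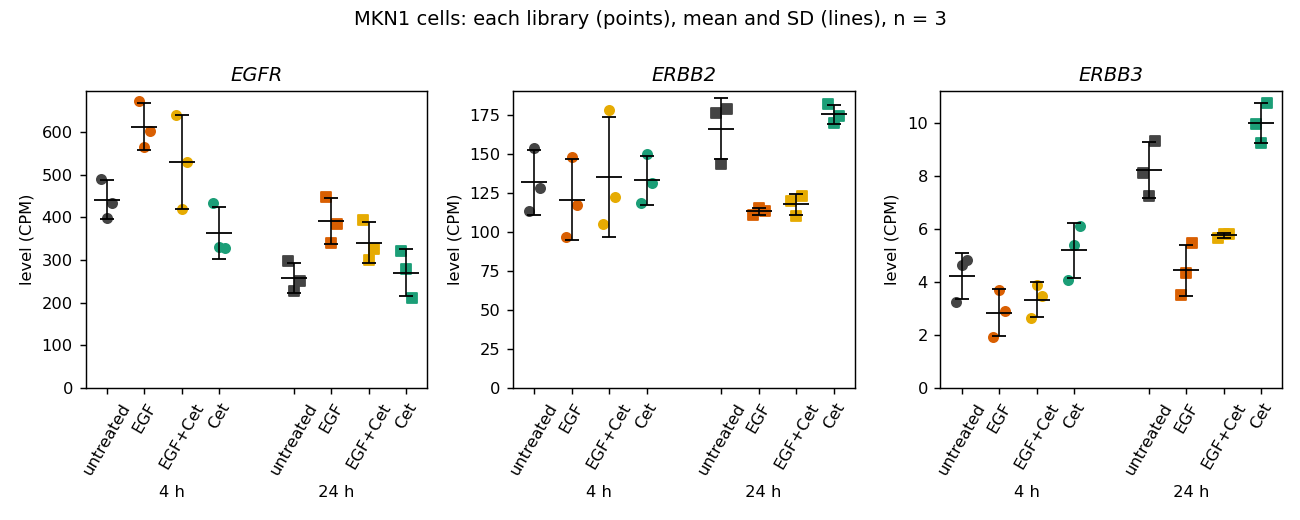
Level (CPM) of EGFR, ERBB2 and ERBB3 in MKN1 cells after EGF, EGF + cetuximab (EGF+Cet) and cetuximab (Cet), with each of 3 libraries as a point (circles 4 h, squares 24 h) and mean and SD as lines. At 24 h the EGF libraries of EGFR (340 to 447 CPM) lie above and those of ERBB3 (3.53 to 5.46 CPM) below the untreated ones.

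Some members differed between 4 h and 24 h without any agent. The paper states that medium was changed before treatment. Time in culture, time since fresh medium and cell growth therefore cannot be told apart here. In untreated MKN1 cells EGFR fell from 490, 399 and 433 CPM at 4 h to 296, 226.5 and 251 CPM at 24 h (log2FC -0.79, SE 0.17, p.adjust 0.000491) and ERBB3 rose from 3.24, 4.63 and 4.83 CPM to 8.13, 7.24 and 9.32 CPM (0.94, SE 0.20, p.adjust 0.000498). Neither gene overlapped between the times, and 2 of 4 members changed, where 34.1% of all genes did. In MKN7 cells ERBB3 (0.51, p.adjust 0.00116) and ERBB4 (0.67, p.adjust 0.00227) rose, where 16.4% of all genes changed, and ERBB3 did not pass without replicate 1 (0.44, p.adjust 0.0501). EGFR (-0.32) and ERBB2 (0.25) did not pass there. In NCI-N87 cells none passed (0.267% of all genes), with ERBB2 at 0.31 and ERBB3 at 0.33, and in Hs746T cells none passed (1.48% of all genes).

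The ratio of ERBB3 to EGFR counts within a library needs no scaling between libraries and shows both movements at once. In NCI-N87 cells it was 0.382 at 4 h and 0.441 at 24 h in untreated cells (geometric means, n = 3) and 1.43 and 4.10 after afatinib. On the log2 scale the replicates were at -1.67, -1.33 and -1.17 without and 0.51, 0.49 and 0.55 with afatinib at 4 h, and at -1.03, -1.20 and -1.32 against 1.97, 2.09 and 2.05 at 24 h. ERBB3 counts thus exceeded EGFR counts in every NCI-N87 library with afatinib and in none without it. In MKN7 cells the ratio went with afatinib from 0.0441 to 0.119 at 4 h and from 0.0778 to 0.203 at 24 h. In MKN1 cells afatinib took it from 0.0095 to 0.0148 at 4 h and from 0.0319 to 0.0453 at 24 h. In Hs746T cells it went from 0.0032 to 0.0047 and from 0.0035 to 0.0036. In MKN1 and Hs746T cells the libraries with and without afatinib overlapped at each time. EGF took the ratio in MKN1 cells from 0.0095 to 0.0045 at 4 h and from 0.0319 to 0.0113 at 24 h. The ratio is of counts and not of levels per length.

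**Figure D5:**
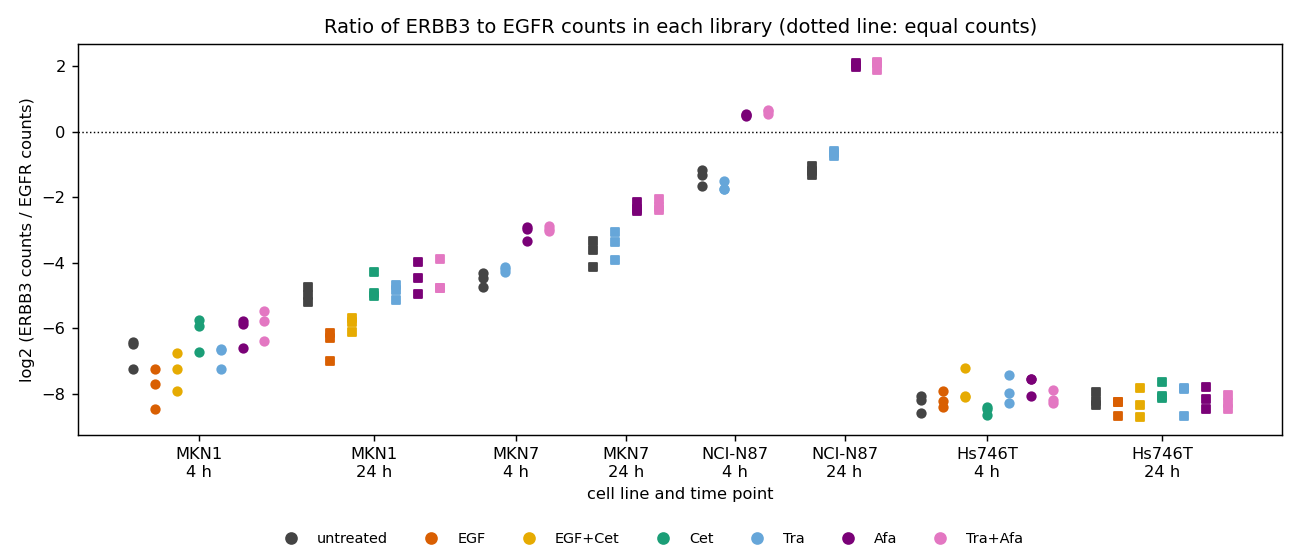
Log2 ratio of ERBB3 to EGFR counts in each library by cell line and time point, with colours for the treatment and a dotted line at equal counts. Only NCI-N87 libraries with afatinib lie above the line, at 0.49 to 0.67 at 4 h and 1.89 to 2.14 at 24 h.

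EGFR and ERBB3 also ran opposite to each other over the conditions. Over 44 condition means of log2 CPM, each centred on its line, Pearson's r was -0.93 for EGFR and ERBB3, -0.78 for EGFR and ERBB2, and 0.76 for ERBB2 and ERBB3. Within lines, r for EGFR and ERBB3 was -0.98 for MKN1 (14 conditions), -0.92 for MKN7 (8), -0.95 for NCI-N87 (8) and -0.20 for Hs746T cells (14). The points share untreated libraries, time points and scaling, so these values are a description. Of 9375 genes, those most like EGFR by the same measure were SLC4A7, a bicarbonate transporter (0.97), STK39, a kinase that acts on ion transporters (0.97), G3BP1, an RNA-binding protein of stress granules (0.97), MICAL2, which oxidises actin (0.97), and WRNIP1, a DNA repair protein (0.97). Those most like ERBB2 were THBS3, an extracellular matrix protein (0.92), CRAT, carnitine acetyltransferase (0.91), RNPEP, an aminopeptidase (0.91), STK31 (0.91) and CELSR3, a cadherin with a role in axon growth (0.90). By Spearman's correlation, the genes named for EGFR ranked 5, 7, 12, 238 and 272 in the order given, and those for ERBB2 1, 2, 14, 6 and 68. Within Hs746T cells, Pearson's r was 0.94, 0.83, 0.95, 0.63 and -0.06 for the EGFR genes. For the ERBB2 genes it was 0.63, 0.34, 0.37, 0.71 and 0.33 there. ERBB3 and ERBB4 did not reach the level limit of this measure in all lines.

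The other genes of the pathway were read from lists, and each count stands against the share of all genes that passed in either direction: 18.2% and 62.5% in NCI-N87 cells after 4 h and 24 h afatinib, 22.2% and 51.6% in MKN7 cells, 3.68% in MKN1 cells after 4 h, and 6.82% and 35.8% in MKN1 cells after 4 h and 24 h EGF. The ligands of EGFR and ERBB4 were mostly lower after afatinib where they passed the test. In NCI-N87 cells 0 of 7 were higher and 4 lower after 4 h afatinib (median log2FC -0.90 against 0.02 over all genes), led by EREG (-1.84), AREG (-1.58) and HBEGF (-1.18), which encode epiregulin, amphiregulin and heparin-binding EGF. After 24 h 2 were higher and 4 lower, with EREG at -2.91, AREG at -2.32 and HBEGF at -2.22. In MKN7 cells 4 of the 5 tested were lower at both times and none higher (1 higher at 24 h with library size alone), with AREG at -1.73 and -2.40. In MKN1 cells, in which EGFR did not pass, AREG was at -2.34, EREG at -2.17 and HBEGF at -1.10 after 4 h, and 4 of 7 were lower.

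After EGF the ligand genes of MKN1 cells went up: 4 of 7 at 4 h (AREG 2.26, EREG 1.38, HBEGF 1.37, median 1.25) and 4 up and 1 down at 24 h (AREG 1.79, EREG 1.76, EGF -1.67, median 1.07). Among the neuregulins, not all of which bind ERBB3, NRG4 rose in afatinib-treated NCI-N87 cells (0.74 at 4 h and 0.85 at 24 h). It fell in MKN1 cells after 24 h EGF (-1.75). ERBB3 moved in the same directions, and ERBB4 passed in none of these comparisons. NRG4 was at 28.2 CPM in untreated NCI-N87 cells against 0.72 to 1.23 CPM in the other lines. NRG1 was highest in Hs746T cells (70.1 CPM against 0.28 to 1.79 CPM). No gene of any of these lists passed edgeR's test after afatinib in Hs746T cells, where no gene of all tested did.

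Of 15 genes for receptor turnover and inhibition, 2 were higher and 7 lower in NCI-N87 cells treated with afatinib for 24 h (5 and 6 with library size alone), where 62.5% of all genes passed, with ERRFI1, a feedback inhibitor of EGFR, at -1.67, CBLB, a ubiquitin ligase for receptors, at 1.36 and the phosphatase gene PTPN1 at -1.08. In MKN7 cells 2 were higher and 8 lower, with CBLB at 1.93, ERRFI1 at -1.47 and ERBIN, which binds ERBB2, at 0.88. After EGF in MKN1 cells ERRFI1 rose by 1.76 at 4 h and 0.91 at 24 h, while CBLB fell by 0.84 on the log2 scale at 24 h. Of the transcription factors linked to ERBB genes, 4 of 9 were higher and 1 lower in afatinib-treated NCI-N87 cells at 24 h, which is under the 62.5% of all genes, led by the forkhead gene FOXO4 (2.04) and the ETS gene ELF3 (1.60). In MKN7 cells 4 were higher and 2 lower of 10 (6 and 1 with library size alone), with ELF3 at 1.45 and FOXO4 at 1.20. ELF3 was lower in MKN1 cells after EGF (-0.71 at 4 h, -0.96 at 24 h), where EHF (-1.86) and TFAP2A (-0.90) were lower at 24 h too.

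Among the adaptors and PI3 kinase subunits, 5 of 11 were higher and 4 lower in NCI-N87 cells at 24 h of afatinib (7 and 2 with library size alone), with PIK3R3 at 1.71, GRB7 at 1.66 and SHC1 at -0.90. Of 13 RAS, RAF, MEK, ERK and AKT kinase genes, 1 was higher and 6 lower (4 and 4 with library size alone), again under the 62.5% of all genes, with HRAS at -1.06 and MAPK3 at 0.70. Of 10 other receptor tyrosine kinases, 3 were higher and 3 lower, with EPHA2 at -2.74, FGFR2 at 2.08 and FGFR4 at -1.65, and the same 3 genes were at -0.98, 1.44 and -0.95 in MKN7 cells. The sheddase gene ADAM10 fell by 0.59 on the log2 scale in NCI-N87 cells, and in MKN7 cells ADAM10 was at 0.48 and ADAM17 at -0.18. With library size alone ADAM17 was at 0.38 in NCI-N87 cells and passed, and in MKN7 cells it did not pass.

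The neighbours of ERBB2 did not move as 1 block after afatinib. In NCI-N87 cells at 24 h, 5 of 9 were higher and 3 lower (6 and 2 with library size alone), and the median log2FC was 0.75 against 0.03 over all genes and 0.57 for ERBB2. GRB7 (1.66), IKZF3 (1.62) and PNMT (1.28) rose. In MKN7 cells 3 were higher and 2 lower (4 and 0 with library size alone), led by PGAP3 (1.06), MIEN1 (0.98) and IKZF3 (0.84). PGAP3 and MIEN1 overlap ERBB2 on the opposite strand, and their counts may hold reads of ERBB2 if strand was not used in counting, which the sources used here do not state.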

How the data were processed

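Poly-A RNA was made into directional libraries and sequenced paired end; per the labels, Trim Galore, STAR and hg38 were used, and the counting tool, its strand setting and the annotation release are not given in the sources used here. The authors deposited raw counts per Ensembl identifier, 1 file for each library. Of 65217 identifiers, 8404 were not in GENCODE release 29 and held 0.0422% of the counts.

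Tests were run on the counts with edgeR 4.0.16 (R 4.3.3), using TMM, filterByExpr (minimum count 10, minimum total 15), glmQLFit and glmQLFTest, with 1 mean per condition and Benjamini-Hochberg adjustment over all genes tested in each of 88 contrasts. Contrasts within a line used all libraries of that line, and contrasts between lines used the libraries of all lines. Changed means an adjusted p below 0.05, and regulated also an absolute log2FC above 1, after the study's methods. The code was tested on simulated data. P-values of contrasts within a line measure the spread between the biological replicates of that line. Those of contrasts between lines rest on the spread between replicates pooled over the 4 lines. The main fit had no term for the replicate number. Variation shared by samples of the same number, described below, therefore stays in the spread of these tests.

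The members and lists were chosen with earlier results of these data known. Named from each list were at most 3 genes with the largest absolute log2FC among those that passed in the comparison described, and the same genes elsewhere where values are set side by side. The value of 1 gene that the rule would name is not reported here. The level limit for likeness was a log2 CPM of 1. Genes of other lines were those under 0.3 CPM in a line and above 100 CPM in another.

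Replicate numbers from the sample labels paired the samples in 52 of 56 comparisons within lines (every correlation of deviations above 0.1). Alternatives were DESeq2 1.42.0, a fit of the compared groups only, a minimum of 10 counts in each library, omission of the filter, scaling by library size, the replicate block and leaving out each replicate. Taking away amounts implied by other lines' genes and leaving out 1 Hs746T library as well as the replicate block in fits limited to the compared lines, were chosen after the data were seen. Plots were made in matplotlib 3.10.9 (Python 3.11.15).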

Additional observations from a re-analysis of the deposited data

Results flagged for a closer look

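The results given here stood out because the effect of afatinib differed between time points or lines in a test of the difference itself (edgeR's quasi-likelihood test, adjusted over all genes). The fall of EGFR in NCI-N87 cells was larger at 24 h than at 4 h by -0.93 log2 units (SE 0.21, p.adjust 0.00136). After 24 h, ERBB3 rose more in NCI-N87 than in MKN7 cells by 1.29 log2 units (SE 0.22, p.adjust 2.2e-06). For ERBB2 after 24 h, the log2FC was 0.59 in MKN7 and -0.13 in MKN1 cells, which differ by 0.71 log2 units (SE 0.20, p.adjust 0.0152). With the amount implied by other lines' genes taken away, the MKN1 value by library size alone went from -0.044 to 0.111. The tests of EGFR and ERBB2 did not pass without replicate 2, and that of ERBB2 not without replicate 3 either. The log2FC in the groups behind each difference, with the values per library, are given in the report. No cause was tested.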

How the results depend on the processing

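Of 736 values of changed members under other settings, 705 kept their direction and their side of the threshold, 31 kept their direction only and 0 reversed. Of the 88 changed pairs of member and comparison behind these values, 44 were between untreated lines, where differences were largest. Most of the 31 fell on the other pairs, those of treatments, time points and differences between effects. With DESeq2 or without the filter, 88 of 88 kept their call. Of these 31, leaving out replicates 1, 2 and 3 accounted for 6, 9 and 11, the compared groups alone for 3, library size alone for 1 and at least 10 counts in every library for 1. Counts below are of the 4 members that passed, with the count in the report after "against".

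With the replicate number as a block, MKN1 cells had 2 against 0 after 4 h EGF, 1 against 0 after cetuximab (4 h and 24 h) and after afatinib (4 h and 24 h), 2 against 0 after trastuzumab + afatinib (4 h and 24 h), 3 against 1 after 24 h EGF + cetuximab, 1 against 0 for EGF + cetuximab against EGF at 24 h, and 2 (4 h) and 1 (24 h) against 0 for trastuzumab + afatinib against trastuzumab. MKN7 cells had 4 against 2 for trastuzumab + afatinib against trastuzumab at 4 h and for untreated 24 h against 4 h, and 2 against 0 for the afatinib effect at 24 h minus 4 h. NCI-N87 cells had 2 against 0 for untreated 24 h against 4 h and 3 against 1 for the afatinib effect at 24 h minus 4 h, and Hs746T cells 1 against 0 after 4 h afatinib. Calls over the whole gene set grew with the block too. For 4 h EGF (MKN1) they were 1946 up and 1422 down, against 865 and 486. For 24 h cetuximab (MKN1) they were 2899 and 3118, against 975 and 1172. The afatinib effect at 24 h minus 4 h (NCI-N87) had 4305 and 5401, against 2916 and 3911. Whether the members gained more than other genes was not tested. The pairing check covered the 56 comparisons within a line and time point and held except for cetuximab and 3 comparisons of trastuzumab + afatinib in MKN1 cells at 24 h. Pairing between 4 h and 24 h was not checked, and for untreated 24 h against 4 h the block ran over both times. It lost no call. Between lines, a block fitted to the compared libraries, chosen after seeing the data, gave 1 against 0 (4 h) and 2 against 1 (24 h) for NCI-N87 minus MKN7, 1 against 0 and 4 against 1 for MKN7 minus MKN1, and for EGF in MKN1 minus Hs746T 1 and 3 against 0. The block over all libraries of the 4 lines was not run.

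With library size alone, the count was 1 against 2 for NCI-N87 after 4 h afatinib, 3 against 1 for its effect at 24 h minus 4 h, 2 against 1 for MKN1 after 24 h EGF + cetuximab and 1 against 0 for the difference in EGF effect at 24 h. With the compared groups alone it was 1 against 0 for MKN1 after 4 h EGF, 2 against 1 after 24 h EGF + cetuximab, and 1 against 2 for NCI-N87 at 4 h after afatinib and after trastuzumab + afatinib. DESeq2 gave 2 against 1 for the NCI-N87 effect at 24 h minus 4 h and 1 against 0 for the difference in EGF effect, and at least 10 counts gave 1 against 2 for NCI-N87 after 4 h afatinib and 1 against 0 for the difference in EGF effect. Without the fold limit, 26 pairs of member and treatment passed against 6 regulated.

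Leaving out each replicate gave 1 to 3 for MKN1 after 24 h EGF, 0 to 1 after 24 h EGF + cetuximab, 1 to 2 for MKN7 after 4 h afatinib and for untreated MKN7 24 h against 4 h, 1 for MKN7 trastuzumab + afatinib against trastuzumab at 4 h, 1 to 2 for NCI-N87 at 4 h after afatinib and after trastuzumab + afatinib, 0 to 1 for the NCI-N87 effect at 24 h minus 4 h, 1 to 2 for NCI-N87 minus MKN7 and 0 to 1 for MKN7 minus MKN1 at 24 h. Depth limited ERBB4 in NCI-N87 cells, where a library held 2 to 71 counts of it.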
